A study of Mus musculus with 84 samples.

Results

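Perineuronal net matrix genes are the genes whose products build or bind the lattice of hyaluronan and chondroitin sulfate proteoglycans that coats some neurons. The 9 described here were taken by name from a table of 43629 genes: Acan, Bcan, Ncan and Vcan (the lecticans), Hapln1 and Hapln4 (link proteins), Tnr, Has3 and Ptprz1. All 9 were in the table and all 9 passed the filter on low counts, which left 16320 genes to test. RNA was sequenced from the central nucleus of the amygdala (CeA), laser-dissected from frozen sections, in 43 female and 41 male heterogeneous stock Collaborative Cross mice, an outbred population bred from several inbred founder strains. The labels' protocols give a median age of 15 weeks at the start, after which each animal could choose between water and 10% ethanol for 13 weeks, and ethanol stayed available until euthanasia. No animal of the series drank water alone, so comparisons run along the range of drinking and between females and males. Up to 3 animals came from 1 family, so the animals were not fully independent.

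In a net, a long hyaluronan chain made at the cell surface by a hyaluronan synthase serves as a backbone. Lecticans dock on that chain, link proteins clamp the joint, and tenascin-R ties the far ends of the lecticans together. Nets form late in development around fast-spiking, parvalbumin-containing interneurons of the cortex and other cells, limit structural plasticity, and in the amygdala are best known for their part in the persistence of fear memories. Outside nets the same lecticans also fill the looser matrix between cells, much of it made by astrocytes and by cells of the oligodendrocyte lineage.

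All positions are on GRCm38, from the table's exons. Acan lies at chr7:79053483-79115099 on the plus strand, Bcan at chr3:87987531-88000230 on the minus strand and Tnr at chr1:159523769-159931729 on the plus strand. Ptprz1 lies at chr6:22875502-23052916 and Has3 at chr8:106870242-106884566, both on the plus strand. The other 4 sit in 2 pairs, each a lectican and a link protein on opposite strands with their 3′ ends facing each other. Ncan (chr8:70093085-70120873, minus strand) and Hapln4 (chr8:70083529-70090862, plus strand) are 2.22 kb apart, and Vcan (chr13:89655312-89742509, minus strand) and Hapln1 (chr13:89540636-89611832, plus strand) 43.5 kb apart, with 0 listed genes between them. The genes of a pair do not overlap. The end of Has3 overlaps Chtf8 on the opposite strand, and the strand setting of the read counting is not given in the sources used here. Chtf8 had a median count of 2819 against 61 for Has3, so values of Has3 are uncertain.

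The 250 bases before the RefSeq start (GRCm38.p6) are shown for the members of the pair of genes that varied most closely together over the animals, Tnr and Ptprz1, and of the next pair, Ncan and Hapln1. Promoters of 7 of the 9 genes matched by symbol, all but Hapln4 and Has3. Capitals mark matches, on either strand, to any of 5 short motifs that were searched: the TATA element TATAAA, the box known as CCAAT, the GC box GGGCGG, the E-box CACGTG and the other E-box CAGCTG.
Tnr, chr1:159523519-159523768, plus strand: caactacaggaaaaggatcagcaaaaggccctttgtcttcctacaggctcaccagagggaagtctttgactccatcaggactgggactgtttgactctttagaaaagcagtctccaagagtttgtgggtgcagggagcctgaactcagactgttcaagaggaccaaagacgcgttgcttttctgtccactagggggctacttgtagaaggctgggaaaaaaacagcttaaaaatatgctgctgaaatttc
Ptprz1, chr6:22875252-22875501, plus strand: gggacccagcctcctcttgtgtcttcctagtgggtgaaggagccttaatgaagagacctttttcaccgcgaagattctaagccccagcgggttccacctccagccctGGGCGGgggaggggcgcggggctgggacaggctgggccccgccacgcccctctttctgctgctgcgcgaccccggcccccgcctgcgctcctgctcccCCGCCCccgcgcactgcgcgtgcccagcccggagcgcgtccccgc
Ncan, chr8:70120845-70121094, minus strand: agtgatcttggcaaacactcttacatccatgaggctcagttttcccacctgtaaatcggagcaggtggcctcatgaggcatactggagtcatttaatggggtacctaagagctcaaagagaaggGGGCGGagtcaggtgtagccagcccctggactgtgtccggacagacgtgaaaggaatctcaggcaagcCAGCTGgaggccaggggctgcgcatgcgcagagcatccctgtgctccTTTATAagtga
Hapln1, chr13:89540386-89540635, plus strand: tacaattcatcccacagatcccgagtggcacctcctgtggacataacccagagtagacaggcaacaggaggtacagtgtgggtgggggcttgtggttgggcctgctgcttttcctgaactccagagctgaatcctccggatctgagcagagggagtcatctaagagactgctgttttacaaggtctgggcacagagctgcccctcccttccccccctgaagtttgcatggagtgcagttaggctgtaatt
The Tnr and Hapln1 stretches held 0 of the 5 motifs and Ptprz1 held 2 matches to the GC box. Ncan held 1 match each to the GC box, to the E-box CAGCTG and to the TATA element, with no overlap among them. Among 32851 promoters of the same length, 12.4% held the TATA element, 33.8% the CCAAT box, 32.7% the GC box, 6.02% the E-box CACGTG and 13.0% the E-box CAGCTG. G and C made up 46.8% of the Tnr stretch and 71.6% of that of Ptprz1, against 54.4% in both Ncan and Hapln1 and a median of 52.4% over all promoters. The stretches of the closest pair thus differed in base content, with 2 CpG in Tnr and 22 in Ptprz1.

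The libraries held 24118965 to 42036566 counts each (median 31573088.5). Levels are given as CPM, which is counts scaled to a common library size by edgeR, and between genes only as CPM per kb of exon. Among 16 genes of central amygdala neurons, Gad1, which makes GABA, had a median of 491 CPM (312 to 1003). The peptide gene Penk had 432 CPM (49.9 to 1602). Medians of the others were 350 CPM for Sst, 322 for Wfs1, 315 for Gad2, 220 for Slc32a1, 55.9 for Pdyn and 55.0 for Ezr. They were 50.4 CPM for Cyp26b1, 40.4 for Dlk1, 22.9 for Nts, 21.6 for Tac2 and 18.6 for Prkcd. Calcrl had 9.23 CPM, Crh 6.92 and Isl1 4.35, and the lowest library of Isl1 had 0. The CPM in this paragraph are not scaled to exon length and do not rank the genes. Some marker genes of neighbouring regions were abundant and differed widely between libraries. Slc17a7, the vesicular glutamate transporter of cortical and basolateral neurons, had a median of 1359.5 CPM and ran from 13.0 to 2405 CPM. Ppp1r1b, a gene of striatal spiny neurons, ran from 50.7 to 2198 CPM.

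The 4 lecticans ranged from the highest of the 9 genes to the next to lowest. Bcan, which encodes brevican, was the highest of the 9 genes with a median of 70.8 CPM per kb over the 84 animals, above 95.3% of the genes tested. In females it ran from 205.9 to 430 CPM with a median of 289, and in males from 175 to 399 CPM with a median of 283. Ncan, which encodes neurocan, was next with a median of 28.2 CPM per kb; its range was 99.8 to 319 CPM (median 193.9) in females and 108 to 286 CPM (median 206.9) in males. Both are abundant lecticans of the adult brain, and here every one of the 84 animals had more Bcan than Ncan per kb. Vcan, which encodes versican, had a median of 1.07 CPM per kb, with 9.62 to 29.8 CPM (median 15.8) in females and 12.0 to 25.3 CPM (median 15.3) in males. Acan, which encodes aggrecan, the lectican most used to mark nets, had a median of 0.563 CPM per kb, above only 16.1% of genes tested. Its range was 1.90 to 7.49 CPM (median 4.02) in females and 1.90 to 11.2 CPM (median 4.38) in males.

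The link proteins differed from each other. Hapln4, a link protein of the adult brain that binds brevican, had a median of 26.4 CPM per kb, with 53.5 to 192 CPM (median 92.0) in females and 57.1 to 160 CPM (median 95.7) in males. Hapln1, the link protein that mouse cortical nets need for their dense form, had a median of 3.93 CPM per kb, with 10.8 to 35.3 CPM (median 19.7) in females and 10.2 to 53.3 CPM (median 20.9) in males. Its highest value, 53.3 CPM in male replicate 18, stood well above the next highest of 35.3 CPM in female replicate 28.

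Tnr, which encodes the cross-linker tenascin-R, had a median of 12.0 CPM per kb, with 94.4 to 263 CPM (median 152) in females and 76.2 to 267 CPM (median 160.7) in males. Ptprz1, a receptor tyrosine phosphatase whose secreted form phosphacan is itself a chondroitin sulfate proteoglycan that binds tenascins, had a median of 22.9 CPM per kb. It ran from 68.5 to 267 CPM (median 182) in females and from 89.5 to 352 CPM (median 190) in males, where male replicate 18 was again the highest. Has3, a hyaluronan synthase, was the lowest of the 9 with a median of 0.305 CPM per kb and of 61 counts a library. It ran from 0.933 to 4.09 CPM (median 1.96) in females and from 1.10 to 4.73 CPM (median 1.93) in males.

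By median level per kb the order was therefore Bcan, Ncan, Hapln4, Ptprz1, Tnr, Hapln1, Vcan, Acan and Has3. Neighbours kept this order in most animals, in 84, 82, 84, 84, 79 and 74 of 84 for Bcan over Ncan, Ptprz1 over Tnr, Tnr over Hapln1, Hapln1 over Vcan, Vcan over Acan and Acan over Has3. The exceptions were the middle ranks, where Ncan exceeded Hapln4 in 47 animals and Hapln4 exceeded Ptprz1 in 54. The order of these 3 thus changed from animal to animal, and whether their levels differed was not tested. The median over all 16320 genes was 4.99 CPM per kb, which 5 of the 9 genes exceeded.

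**Figure D1:**
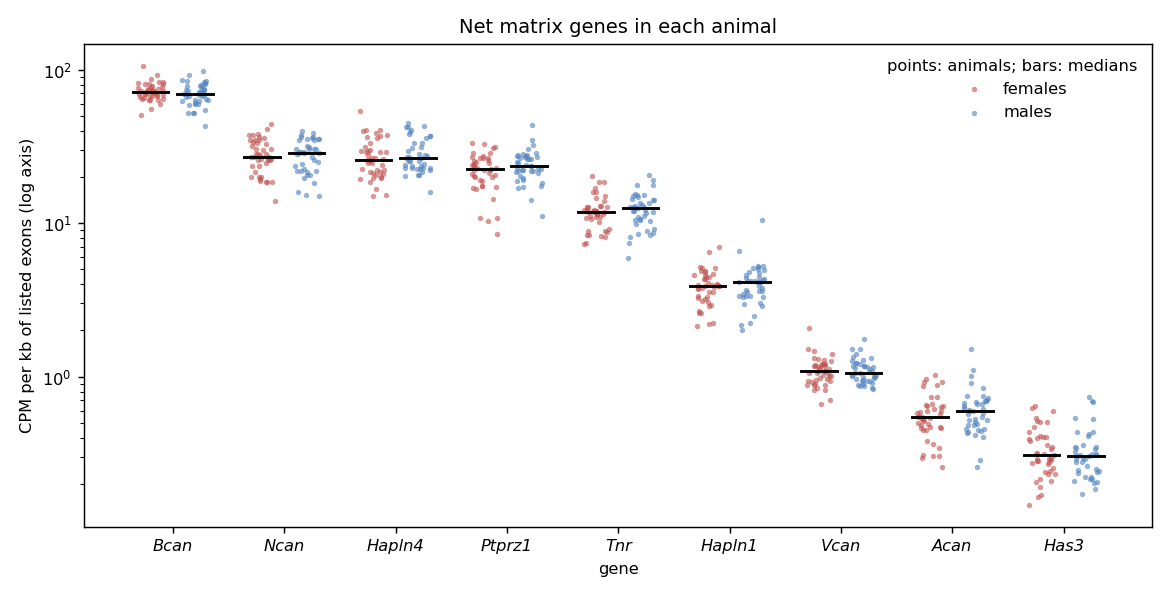
Levels of the 9 net matrix genes in each animal as CPM per kb of listed exons on a log axis, with genes ordered by their median, females left of males, and black bars at the medians. Bcan lies highest around 70.8 and Has3 lowest around 0.305, and the females and males of every gene overlap.

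The genes also differed in how much they varied between animals. edgeR's biological coefficient of variation, the spread left after counting noise, sex and mean preference, was 14.8% for Bcan and 19.5% for Vcan. It was 25.1% for Tnr, 25.3% for Ncan, 26.4% for Ptprz1, 26.6% for Hapln4, 28.1% for Hapln1, 32.5% for Acan and 35.2% for Has3. Against the dispersion edgeR expects at a gene's level, Hapln4 (1.54 times), Ptprz1 (1.43), Tnr (1.32), Ncan (1.29) and Hapln1 (1.06) were more variable, with ratios above those of 86.0%, 84.7%, 82.9%, 82.4% and 77.7% of all genes. The ratios of Bcan (0.413), Vcan (0.415), Has3 (0.453) and Acan (0.497) exceeded those of 42.8%, 43.0%, 46.8% and 51.0% of all genes and so lay near the middle. Bcan was both the most abundant of the 9 and the one with the smallest coefficient of variation.

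Whether the genes varied together was asked by correlating each of the 36 pairs over the animals, on log2 CPM centred on the mean of each sex. After Benjamini-Hochberg adjustment over the pairs, 7 of 36 passed an adjusted permutation p of 0.05, 6 of them positive, and the median r was 0.13. For comparison, 27.2% of all pairs of genes tested had an r of at least 0.286 in size, the weakest value among those 7, so a share of this size was no more than the background. The closest pair was Tnr and Ptprz1, with r = 0.65 (permutation p = 1e-05, the smallest that 100000 resamples can give, adjusted 0.00012) and Spearman's rho = 0.69 (p = 1e-05). Their r was 0.64 without the 2 animals farthest from the median and 0.74, 0.77, 0.79 and 0.52 in the 4 possible batches given by ascending runs of numbers in the sample titles. Both sexes showed it, with 0.63 in females and 0.68 in males. Of 13121 other genes with a mean log2 CPM of 1 or more, 6.42% had an r with Tnr at least as high as that of Ptprz1. For r with Ptprz1, 1.31% were at least as high as Tnr.

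The next 3 pairs by r were those among Ncan, Hapln1 and Tnr. Ncan and Hapln1 had r = 0.54 (permutation p = 1e-05, adjusted 0.00012; rho = 0.49, p = 1e-05), with 0.47 without the 2 farthest animals and 0.03, 0.53, 0.49 and 0.53 within the runs, so the first run did not show it. Ncan and Tnr had r = 0.48 (permutation p = 1e-05, adjusted 0.00012; rho = 0.42, p = 5e-05), with 0.40 without the 2 farthest animals and 0.42, 0.37, 0.70 and 0.44 within the runs. Hapln1 and Tnr had r = 0.43 (permutation p = 2e-05, adjusted 0.00018; rho = 0.38, p = 0.00039), with 0.32 without the 2 farthest animals and 0.20, 0.81, 0.70 and 0.16 within the runs. Of 13121 other genes, 10.3% had an r with Ncan at least as high as that of Hapln1. For r with Hapln1, 3.83% were at least as high as Ncan. For Ncan and Tnr the shares were 13.8% for r with Ncan and 15.5% for r with Tnr. For Hapln1 and Tnr they were 8.89% for r with Hapln1 and 17.7% for r with Tnr. The 3 pairs, with Tnr and Ptprz1, were the 4 that passed by Pearson's r in females and in males alike. In females 10 pairs passed by r and 1 by rho, and in males 4 by r and 3 by rho. Whether the sexes differed in this was not tested.

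The remaining 3 pairs were weaker. Bcan and Vcan had r = 0.33 (permutation p = 0.00201, adjusted 0.0145), but rho was 0.18 (p = 0.103), and leaving out single animals brought r as low as 0.26. Hapln1 and Ptprz1 had r = 0.30 (permutation p = 0.00512, adjusted 0.0307; rho = 0.28, p = 0.0112), with 0.21 without the 2 farthest animals, and it was below 0 within the first and last runs (-0.08 and -0.19). Bcan and Tnr, the lectican and the cross-linker, ran in opposite directions with r = -0.29 (permutation p = 0.0085, adjusted 0.0437; rho = -0.32, p = 0.00289). Within the runs their r was -0.40, 0.09, -0.75 and -0.47. It no longer passed with DESeq2 size factors (r = -0.27, adjusted permutation p = 0.0538) or after 5 list scores (r = -0.11, adjusted 0.468). Acan, the lectican that marks nets, formed no pair that passed over all animals. Its highest r was 0.27 with Ptprz1 (permutation p = 0.0142, adjusted 0.0522, and rho = 0.23, p = 0.0327). Male replicate 39 had the highest Acan level, 11.2 CPM. Without that animal 10 of the 36 pairs passed by r, 9 of them positive, and 8 by rho. Which of those pairs held Acan is not given here.

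Each of the 4 lecticans has a link protein gene as its neighbour, and these 4 pairs were correlated in the same way. After adjustment over the 4 pairs, Bcan with Hapln2 passed with a positive r and Ncan with Hapln4 with a negative one. Among all pairs of genes tested, 27.2% had an r of at least 0.286 in size. Bcan with Hapln2 was beyond that size and Ncan with Hapln4 was not, so passing is no sign of a relation beyond the background. Vcan and Hapln1 had r = -0.08 (permutation p = 0.461; rho = -0.09, p = 0.411). Ncan and Hapln4, 2.22 kb apart, had r = -0.26 (permutation p = 0.0178, adjusted over the 4 neighbour pairs 0.0355; rho = -0.27, p = 0.0115). Its adjusted permutation p over the 36 pairs of members was 0.0526, its r within the runs was 0.01, -0.63, -0.28 and -0.17, and after 5 list scores its r was 0.04 (adjusted permutation p = 0.793). Acan and Hapln3, 1.93 kb apart, had r = 0.12 (permutation p = 0.273; rho = 0.20, p = 0.0695). Bcan and Hapln2, a link protein of myelinated tracts 21.5 kb away, had r = 0.36 (permutation p = 0.00079, adjusted over the 4 neighbour pairs 0.00316; rho = 0.33, p = 0.00206). That pair had r = 0.29 without the 2 farthest animals and 0.49, 0.47, 0.74 and 0.25 within the runs.

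**Figure D2:**
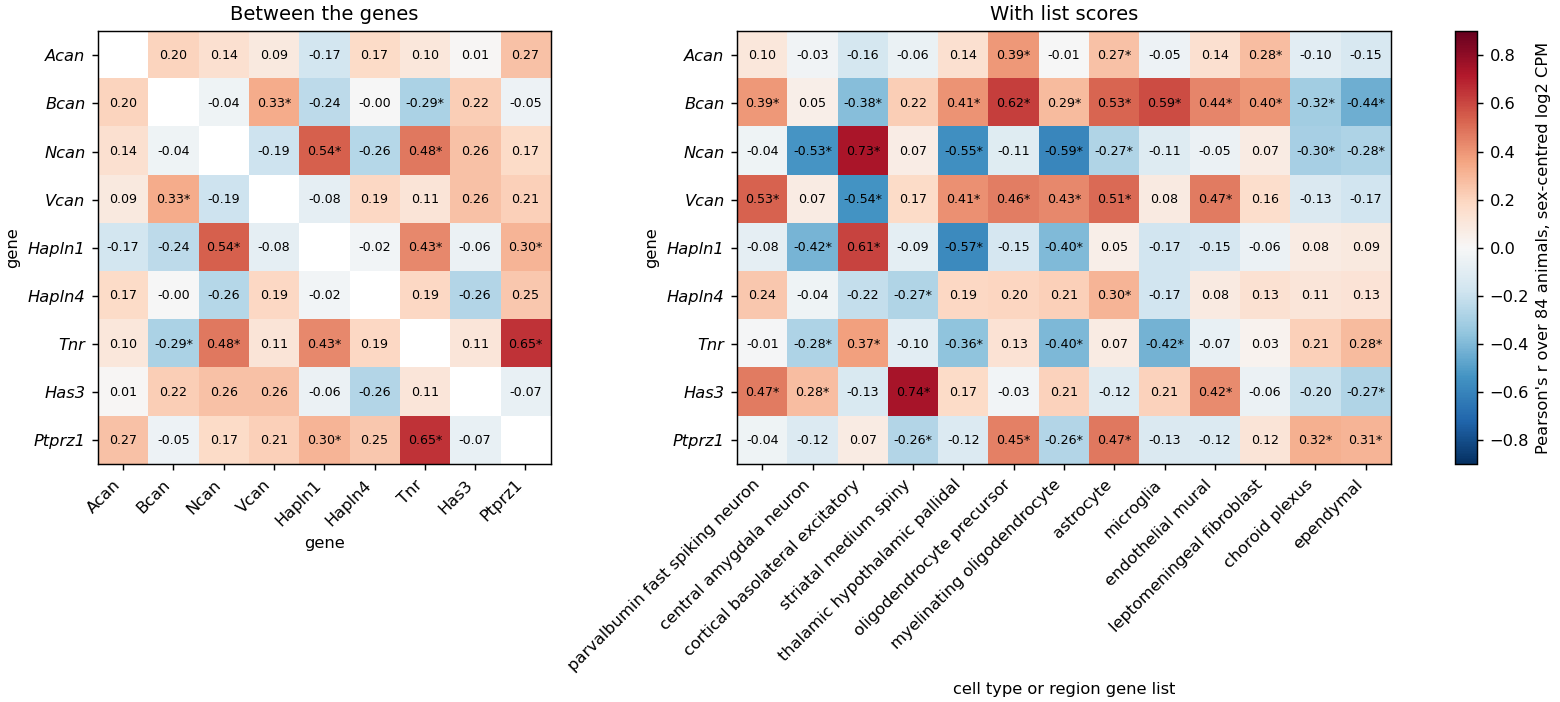
Pearson's r over 84 animals on sex-centred log2 CPM, between the 9 genes (left) and between each gene and the score of 13 cell type or region gene lists (right), with red positive, blue negative and an asterisk at an adjusted permutation p below 0.05. Tnr with Ptprz1 (0.65) is the strongest pair, and Ncan with the cortical and basolateral list (0.73) and Has3 with the striatal list (0.74) are the strongest list relations.

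Laser dissection can take in neighbouring tissue to different extents, so each gene was set beside the scores of 13 lists of cell type and region genes, the score being the mean z-score of the list in a library. In bulk tissue, fewer cells of a type and less RNA per cell cannot be told apart. Of 117 gene and list pairs, 51 passed an adjusted permutation p of 0.05: 11 for Bcan, 7 each for Ncan and Vcan, 6 each for Tnr and Ptprz1, 5 for Has3, 4 for Hapln1, 3 for Acan and 2 for Hapln4. How many of all genes tested would pass against these lists was not counted, so these counts have no background beside them. The lists with the highest r differed from gene to gene.

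Ncan and Hapln1 rose with genes of cortical and basolateral excitatory neurons. Ncan had r = 0.73 with that list (permutation p = 1e-05, adjusted 7.8e-05; rho = 0.74, p = 1e-05), with 0.72 without the 2 farthest animals and 0.64, 0.67, 0.68 and 0.82 within the runs. Hapln1 had r = 0.61 with it (permutation p = 1e-05, adjusted 7.8e-05; rho = 0.57, p = 1e-05) and 0.27, 0.56, 0.66 and 0.61 within the runs. Both fell with the list of central amygdala neurons, with r = -0.53 for Ncan (adjusted permutation p = 7.8e-05) and -0.42 for Hapln1 (0.000292). Ncan fell with myelin genes as well (r = -0.59, adjusted permutation p = 7.8e-05). The summed level of the cortical and basolateral list itself ran from 419 to 4035 CPM in females and from 456 to 4067 CPM in males. The part of dissection in the pairing of Ncan with Hapln1 was not tested beyond 1 value, r = 0.23 (adjusted permutation p = 0.0646) on residuals after 5 region and cell list scores.

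Vcan ran the other way, with r = -0.54 to the cortical and basolateral list (adjusted permutation p = 7.8e-05). It rose with the list of parvalbumin fast-spiking neurons (r = 0.53, permutation p = 1e-05, adjusted 7.8e-05; rho = 0.39, p = 0.00025) and with the astrocyte list (r = 0.51, adjusted 7.8e-05). Has3 had r = 0.74 with the list of striatal medium spiny neurons (permutation p = 1e-05, adjusted 7.8e-05; rho = 0.67, p = 1e-05). That value was 0.70 without the 2 farthest animals and 0.68, 0.81, 0.83 and 0.73 within the runs. The summed level of the striatal list ran from 1113 to 8939 CPM in females and from 955 to 10314 CPM in males. Chtf8, which overlaps the end of Has3, had r = 0.40 with it.

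Bcan followed glia. Its r was 0.62 with oligodendrocyte precursor genes (permutation p = 1e-05, adjusted 7.8e-05; rho = 0.57, p = 1e-05; 0.51, 0.84, 0.43 and 0.42 within the runs), 0.59 with microglia genes and 0.53 with astrocyte genes. Ptprz1 had r = 0.47 with astrocyte and 0.45 with oligodendrocyte precursor genes (both adjusted permutation p = 7.8e-05). Tnr, which is made by oligodendrocytes and some interneurons, fell with myelin genes (r = -0.40, adjusted permutation p = 0.000585) and with microglia genes (r = -0.42, adjusted 0.00039). Acan had its highest r, 0.39, with precursor genes (adjusted permutation p = 0.00117), and with the parvalbumin list its r was 0.10 (permutation p = 0.358; rho = 0.12, p = 0.273). Pvalb itself had a median of 24.7 CPM and ran from 3.81 to 172.8 CPM.

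For each member, the 5 genes with the most similar levels over the 84 animals were taken by Pearson's r among 13122 genes whose mean log2 CPM was 1 or more. For Ncan they were Syt7 (r = 0.91), Mras (0.88), Ppp2r2c (0.88), Unc13a (0.88) and Lphn1 (0.88), and for Has3 Pde10a (0.77), Adcy5 (0.76), Gng7 (0.74), Asic4 (0.74) and Bcr (0.74). Pde10a and Adcy5 belong to the striatal list. For Tnr they were Tmod2 (0.88), Ncor1 (0.87), Xkr4 (0.87), Atm (0.86) and Mbd5 (0.86), and for Ptprz1 Ppap2b (0.84), Egfr (0.83), Fads2 (0.82), Ckap5 (0.82) and Ntrk2 (0.82). Hapln1 went with Slc1a2 (0.77), Abi1 (0.77), Mfap3l (0.76), Reps2 (0.75) and Fmr1 (0.74), Vcan with Myo6 (0.72), Usp54 (0.72), 4931406P16Rik (0.70), Pde3a (0.70) and Tmtc2 (0.70), and Bcan with Acsbg1 (0.70), 4632428N05Rik (0.69), Eef2 (0.68), Cntfr (0.68) and Sfxn5 (0.68). Acan and Hapln4 had less close companions: Igsf3 (0.55), Megf11 (0.54), Nt5c1a (0.51), Hcn4 (0.49) and Prex1 (0.48) for Acan, and Iqsec3 (0.61), Sema4g (0.56), C530008M17Rik (0.54), Fgfr1 (0.53) and Exoc6b (0.53) for Hapln4.

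A property of the libraries also moved with several of the genes. In each library the rank correlation across genes between exon length and the gene's deviation from its sex mean was taken as its exon-length tilt, which ran from -0.42 to 0.38. Tnr, with 12.9 kb of exon, had r = 0.81 with it (permutation p = 1e-05, adjusted 9e-05; rho = 0.79, p = 1e-05) and 0.93, 0.66, 0.82 and 0.86 within the runs. Ptprz1 had r = 0.51 (permutation p = 1e-05, adjusted 9e-05; rho = 0.55, p = 1e-05) and Ncan 0.45 (permutation p = 3e-05, adjusted 0.00018; rho = 0.42, p = 0.00012). Bcan, with 4.06 kb of exon, had r = -0.12 (permutation p = 0.269; rho = -0.14, p = 0.195). On residuals after the tilt, r of Ncan and Tnr was 0.22 (adjusted permutation p = 0.102), which no longer passed. The highest r of any of the 36 pairs was then 0.504, against 0.647 before. That of Tnr and Ptprz1 was therefore not above 0.504, and which pair held this value is not given here. The r of the tilt with mean preference was 0.01.

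**Figure D3:**
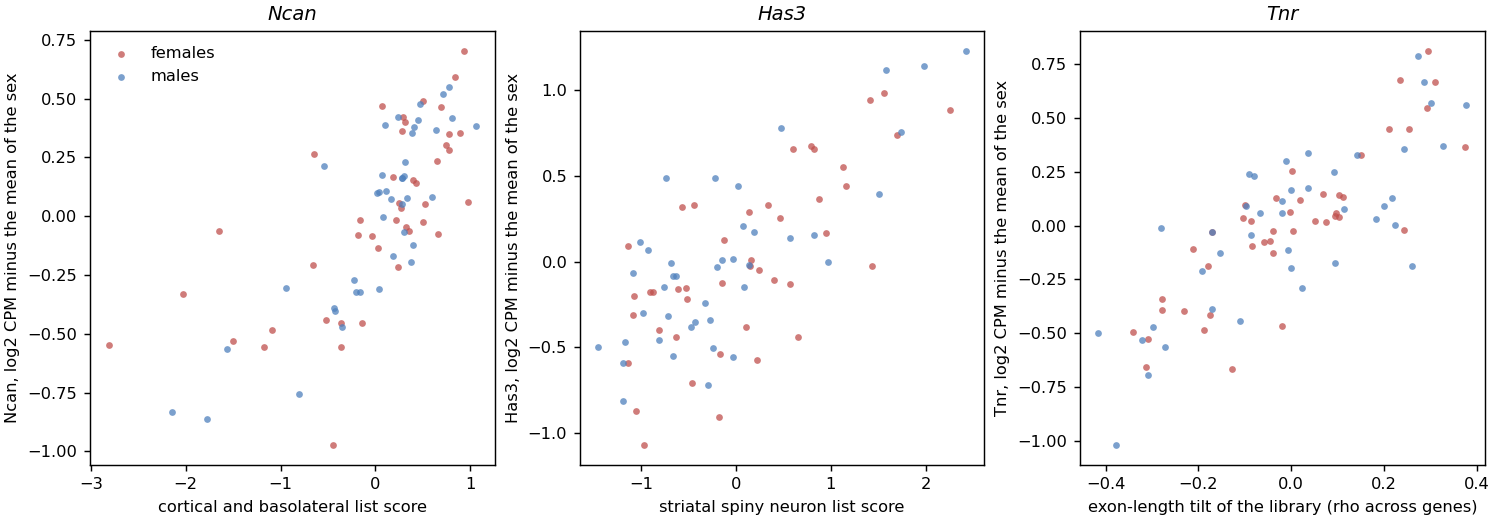
Sex-centred log2 CPM of Ncan against the cortical and basolateral list score, of Has3 against the striatal list score and of Tnr against the exon-length tilt of the library, 1 point an animal, females red and males blue. All 3 clouds rise from left to right, with r of 0.73, 0.74 and 0.81.

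The study's main question was which genes go with chronic ethanol preference, the share of the drunk volume that came from the ethanol tube. Mean preference over 13 weeks ran from 0.0435 to 0.759 (median 0.229) in females and from 0.0262 to 0.713 (median 0.153) in males. None of the 9 genes passed edgeR's quasi-likelihood test with Benjamini-Hochberg adjustment over 16320 genes in any of the 10 fits of preference or intake: 0 of 9 had an adjusted p below 0.05, and the lowest was 0.38. DESeq2 and limma-voom called 0 of 9 as well. In the fit of mean preference over all animals 0% of all genes tested passed, and at an unadjusted p of 0.05 it was 3.94%, against 1 of the 9, Bcan.

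Bcan and Vcan sloped down in all 10 edgeR fits of drinking as first specified, and Bcan had the smaller p-values. Among females its CPM was 205.9, 224.8, 298, 307 and 316 in the 5 highest drinkers, against 294, 296, 304, 326 and 430 in the 5 lowest. Among males it ran from 213 to 302 (median 262) in the 5 highest drinkers, against 242 to 344 (median 283) in the 5 lowest. The ends overlapped in both sexes. Its log2 level fell by 0.17 ± 0.07 (SE) per 0.5 higher mean preference over all animals (edgeR unadjusted p = 0.0199, adjusted 1). With the run as a term the difference was -0.14 ± 0.07 (edgeR unadjusted p = 0.0692), and with 5 list scores as terms -0.10 ± 0.07 (0.122). For week 1 preference the difference was -0.17 ± 0.07 over all animals (edgeR unadjusted p = 0.0142, against 3.25% of all genes below 0.05) and -0.25 ± 0.10 in males (0.0188, against 5.17%). The adjusted test passed 0.0306% of all genes for week 1 over all animals and 0.0368% in males, and 0 of the 9. For week 13 preference it was -0.13 ± 0.06 (0.0188, against 6% of all genes), and -0.07 ± 0.05 with list scores (0.206). For ethanol intake it was -0.18 ± 0.07 per 10 g/kg (0.0143, against 7.87%; edgeR adjusted p = 0.38), where the adjusted test passed 0.049% of all genes, and -0.08 ± 0.07 with list scores (0.241). Pearson's r of Bcan with mean preference was -0.26 over 84 animals (permutation p = 0.0184) and rho -0.19 (p = 0.0912). Within the 4 runs that r was 0.37, -0.47, -0.39 and -0.06, so the relation had no common direction within the runs. Bcan also rose with the glial lists above, among others. The r with mean preference was -0.23 for the microglia score, -0.15 for the oligodendrocyte precursor score and -0.07 for the astrocyte score. The part of these scores in the relation was not tested.

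The other lecticans had smaller slopes relative to their errors. Over all animals the log2 difference per 0.5 higher mean preference was -0.20 ± 0.16 for Acan, -0.09 ± 0.13 for Ncan and -0.07 ± 0.10 for Vcan. For Acan the CPM of the 5 highest drinkers among females was 3.28, 3.39, 3.86, 4.40 and 6.45, against 3.42, 3.44, 4.71, 4.84 and 7.11 in the 5 lowest, and the ends overlapped. Tnr (-0.02 ± 0.12) and Ptprz1 (-0.03 ± 0.13) had slopes near 0, and those of Hapln1 (-0.06 ± 0.14) and Has3 (-0.19 ± 0.19) were within about 1 SE. The median slope of the 9 was -0.07, with 8 of 9 below 0, beside a median of -0.0016 over all genes tested.

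Hapln4 was the only member above 0 over all animals, at 0.19 ± 0.13 (edgeR unadjusted p = 0.14, adjusted 1). Among females its CPM was 74.9, 80.2, 99.0, 132 and 192 in the 5 highest drinkers, against 69.9, 79.2, 107, 134.2 and 144.5 in the 5 lowest. Among males it was 73.5, 106, 132, 151.2 and 160 in the 5 highest drinkers, against 82.2, 83.7, 91.2, 94.3 and 112 in the 5 lowest. For week 1 preference in females its slope was 0.38 ± 0.17 (edgeR unadjusted p = 0.0315, adjusted 1), where 2.26% of all genes had an unadjusted p below 0.05. Without the 2 animals farthest from the median it was 0.18 ± 0.20 (edgeR unadjusted p = 0.369).

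Has3, like Tnr and Ptprz1, had slopes of opposite sign in females and males, and its were the largest. In females its log2 level differed by -0.55 ± 0.23 per 0.5 higher mean preference (edgeR unadjusted p = 0.0229, adjusted 0.593), where 6.95% of all genes had an unadjusted p below 0.05. In males it differed by 0.31 ± 0.29 (edgeR unadjusted p = 0.297, adjusted 1), where 1.65% did. The male minus female difference in slope was 0.85 ± 0.37 (edgeR unadjusted p = 0.0237, adjusted 0.999), and 3.24% of all genes had an unadjusted p below 0.05 for that term. For week 13 preference the slope was -0.40 ± 0.18 in females (edgeR unadjusted p = 0.0324, adjusted 0.478), where 8.67% of all genes had an unadjusted p below 0.05 and 0.0368% passed. With the run as a term it was -0.33 ± 0.20 in females (edgeR unadjusted p = 0.116). It was 0.40 ± 0.21 in males (edgeR unadjusted p = 0.0662, adjusted 0.984), where 3.74% of all genes had an unadjusted p below 0.05. Among females its CPM was 1.32, 1.54, 1.73, 1.79 and 1.86 in the 5 highest drinkers, against 1.38, 1.81, 1.88, 2.23 and 3.00 in the 5 lowest, and the ends overlapped. In females r of Has3 with mean preference was -0.34 (permutation p = 0.0272; rho = -0.33, p = 0.0322), and within the runs it was -0.14, -0.49, 0.07 and -0.51. The correlations of the 9 genes with 4 drinking measures in all animals, females and males made 108 relations, of which 7 had a permutation p below 0.05 and 0 passed after adjustment over the 108. Has3 is a low gene that overlaps Chtf8 and moves with striatal genes, and the part of these in its slopes was not tested.

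**Figure D4:**
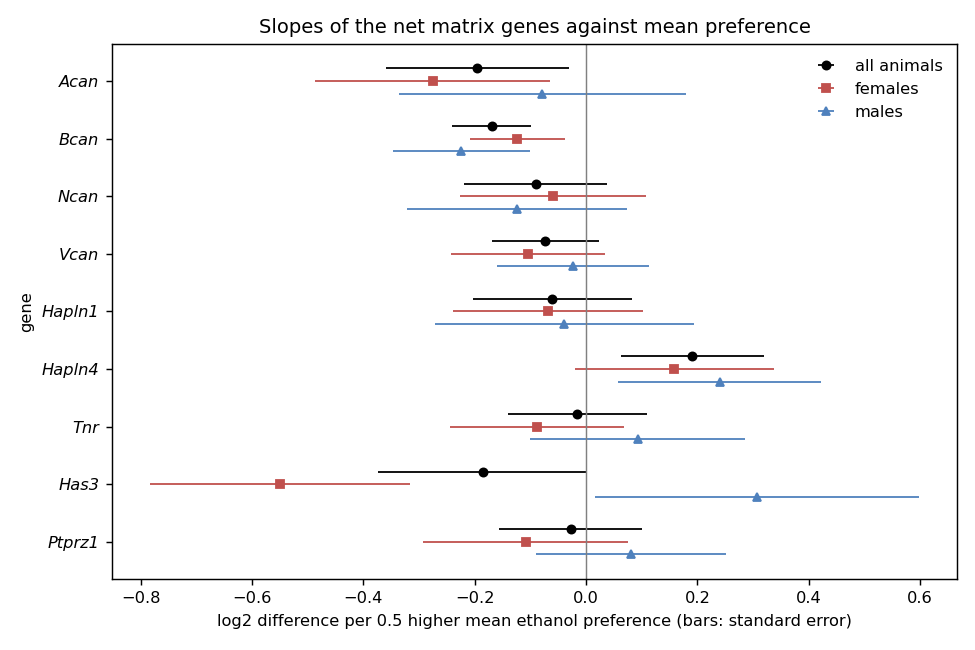
Slopes of the 9 genes as log2 difference per 0.5 higher mean preference, from edgeR, with bars of 1 standard error, for all animals (black), females (red) and males (blue). Bcan lies below 0 in all 3 sets of animals (-0.17 over all animals), Hapln4 above 0 (0.19), and Has3 lies at -0.55 in females and 0.31 in males.

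**Figure D5:**
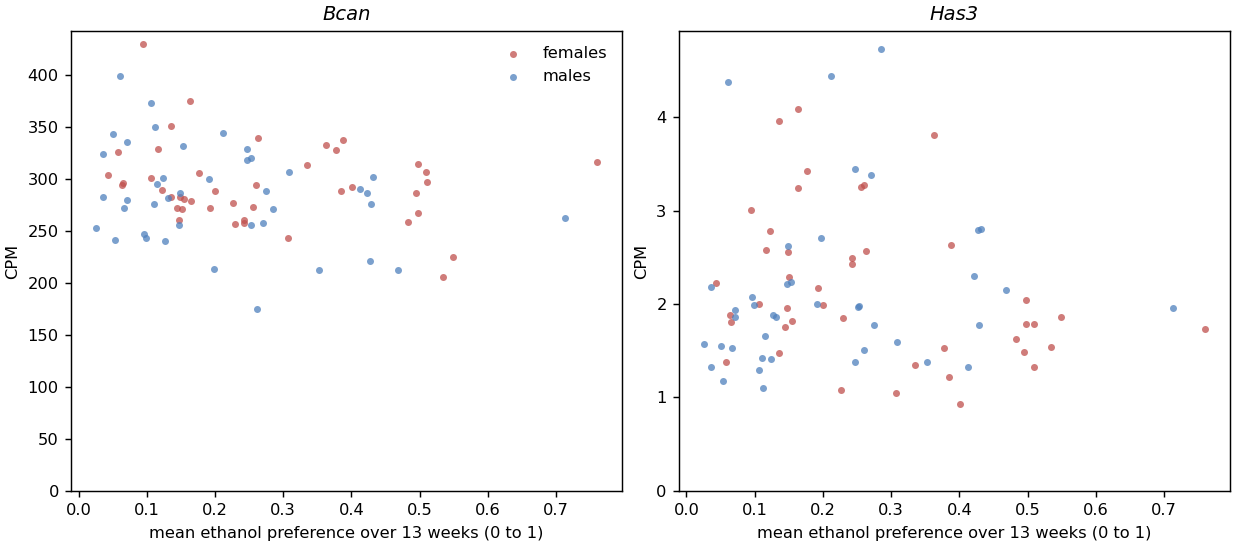
CPM of Bcan (left) and Has3 (right) in each animal against its mean ethanol preference over 13 weeks, females red and males blue. Animals of high and low preference overlap in both panels, and Bcan runs between 175 and 430 CPM and Has3 between 0.933 and 4.73 CPM.

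Females and males were compared in 1 further fit. The log2 difference, female minus male, ran from -0.11 (Ptprz1, ± 0.08 SE) to 0.07 (Bcan, ± 0.05), with 4 of the 9 genes higher and 5 lower in females, and 0 of 9 passed (edgeR adjusted p 0.943 or higher). None had an unadjusted p below 0.05, where 4.15% of all genes did and 0.0858% passed the adjusted test.

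The other genes of the pathway were taken from 5 lists of matrix genes. Of the 9 hyaluronan synthesis and breakdown genes, 13 other link, tenascin and matrix genes, 21 chondroitin sulfate synthesis genes, 21 matrix proteases and inhibitors, and 24 matrix receptors and ligands that were tested, 0 passed the adjusted test in the mean preference fit or between the sexes, and 0 in any other fit. Their median slopes per 0.5 higher mean preference were -0.0019, 0.04, -0.0082, 0.03 and 0.05 in the same order, beside -0.0016 over all genes. The smallest unadjusted p-values for mean preference by edgeR belonged to Adamts20, a secreted metalloprotease of the family that cleaves lecticans (slope 0.35 ± 0.14, p = 0.0161), and Nrp1, the receptor of semaphorin 3A held in nets (0.48 ± 0.22, p = 0.0281). Tnxb, a tenascin of connective tissue (0.55 ± 0.26, p = 0.035), and Ctss, a microglial protease (-0.23 ± 0.11, p = 0.0428), also had p below 0.05. Over all genes tested 3.94% had an unadjusted p below 0.05 in that fit, so a few such genes in these lists are near the background share. Hyal1 (0.31), Ugdh (0.08), Matn4 (-0.15), B4galt7 (-0.05), Chst15 (-0.25) and Otx2 (1.33 ± 0.82) did not. Between the sexes the female minus male differences were -0.09 for Hyal2 (edgeR unadjusted p = 0.0423) and -0.11 for Cntn1 (0.0198), both with an adjusted p of 0.943. In that fit 4.15% of all genes had an unadjusted p below 0.05. Hyal3 (-0.15), Hapln3 (-0.21), Tnn (-0.25), Chsy1 (-0.05), Chpf2 (-0.06), Timp2 (-0.13), Ctss (0.13) and Nrp1 (-0.26) did not reach an unadjusted p of 0.05.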

How the data were processed

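RNA of the dissected CeA was measured by sequencing of stranded poly(A) libraries from 84 mice, 43 females and 41 males, per the labels' protocols. The deposited table holds raw read counts, which the labels call not normalized. The submitters' processing notes name featureCounts 1.6.0 (Subread), STAR, FastQC and DESeq2, and mouse build GRCm38. The strand setting and annotation release of the counting were not given in the sources used here. Besides the animals, 3 columns (undetermined reads) and 5 empty ones stayed unused.

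The 9 genes and the gene lists were chosen with earlier results of these data known. Genes named were all 9 members, list members past the threshold in any fit, the 2 with the smallest p of each matrix list for mean preference and for sex, the 5 genes most correlated with each member, and the 2 highest genes of a cell type list. Pvalb, Chtf8 and further neighbours were named for their relation to the members. All genes of the central amygdala list were named for their levels. Of the list genes, Lhfpl3 was not matched, and Drd1 and Cfap65 were listed as Drd1a and Ccdc108.

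edgeR 4.0.16 in R 4.3.3 fitted the counts with a robust quasi-likelihood model after filterByExpr (minimum count 10, minimum total 15, sexes as groups) and TMM scaling. Each fit covered all 16320 genes, with Benjamini-Hochberg adjustment over them and a threshold of 0.05. Preference was a number per animal, with sex as a term in fits of all animals. Total counts of 24118965 to 42036566 gave a median SE over all genes of 0.11 for a log2 slope per 0.5 of mean preference. Log2 CPM used a prior count of 2. Correlations used 100000 permutations (scipy 1.17.1, numpy 2.4.6). The exon-length tilt was added after the data were seen. Sample titles carry numbers in 4 ascending runs, treated as possible batches, which hold 9, 9, 10 and 15 females and 9, 9, 7 and 16 males. The family and lane of an animal were not analysed here. P-values measure the spread between these animals. DESeq2 1.42.0 and limma-voom (limma 3.58.1) served as alternatives. The fits and correlations were tested on simulated data. Promoter sequences came from RefSeq (GRCm38.p6).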

Additional observations from a re-analysis of the deposited data

How the results depend on the processing

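The count of members called stayed at 0 of 9 under each alternative that was run in a fit. DESeq2 size factors, no filter, DESeq2, limma-voom, the run of sample-sheet numbers as a term and leaving out the 2 animals farthest from the median were run in all fits, and without male replicate 39 in those with males. Ranks of drinking and 5 list scores as terms were run only in the drinking fits of all animals. The exon-length tilt, chosen after seeing the data, was run in all but the week 1 and week 13 fits of 1 sex. Leaving out each animal in turn, with limma-voom and all animals, gave counts from 0 to 0. The slope of Bcan for mean preference ran from -0.22 to -0.10 over these alternatives other than ranks of drinking (unadjusted p 0.00859 to 0.122). Over the animals left out it ran from -0.21 to -0.14. In that fit signs turned for slopes near 0: Ncan with ranks (0.021), Vcan with list scores (0.014), and Tnr with limma-voom (0.010), the run term (0.018), without the 2 farthest animals (0.017) and with ranks (0.029). Over the animals left out, the limma-voom slopes ran on both sides of 0 for Hapln1 (-0.05 to 0.05), Ptprz1 (-0.07 to 0.01), Ncan (-0.13 to 0.01) and Tnr (-0.05 to 0.05). In females r of Ncan and Vcan was 0.21 after list scores, against -0.40. The cause was not tested. Of 36 pairs, 7 passed as first specified (6 positive and 1 negative). When centred on runs 13 passed (9 and 4), after list scores 16 (16 and 0) and after the tilt 12 (5 and 7). With DESeq2 size factors it was 6 (6 and 0), and without male replicate 39 it was 10 (9 and 1). Of 117 gene and list pairs, 6 of the 51 no longer passed when centred on runs. The number of all genes called varied more, from 0 to 53 for mean preference (0 in the edgeR fit with its filter) and from 12 to 62 between the sexes (14). For week 13 preference in females it was 0 with limma-voom, 91 with no filter and 1.26% of genes with DESeq2 (6). Over the other fits it reached 23 and 16 for mean preference in females and in males (0 and 0), 69, 10 and 51 for week 1 (5, 0 and 6), 71 and 31 for week 13 in all animals and in males (0 and 0), 90 for intake (8) and 21 for the sex-by-preference term (0). No paired analysis was possible because replicate numbers follow the order of listing and pair nothing. Exon length by the longest transcript was not run, since the table does not assign exons to transcripts. Low counts limit Has3 and Acan.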
